A study of Mus musculus with 2 samples.

Results

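Luminal duct nuclei of the mouse salivary gland were taken as the barcodes that held at least 1000 unique molecular identifiers (UMIs, 1 per captured RNA molecule), drew under 27% of them from 8 abundant secretory genes (Mucl2, Scgb1b27, Scgb2b27, Prol1, Smgc, Scgb2b26, Pip and Car6), and had at least 1 UMI in at least 4 of 10 duct markers. The markers were Slit2, Cacnb4, Adra1a, Stxbp5l, Tmcc3, Ppargc1a, Wnt4, Tmem163, Eepd1 and Sdk2. The rule took 2660 of 142799 barcodes, 1383 from the control and 1277 from the null library. The control library came from C56BL/6 mice heterozygous for Csf2 (Csf2+/-) and the null library from C56BL/6 mice homozygous for the loss of Csf2 (Csf2-/-), the gene of the cytokine GM-CSF, both aged 20 days, so the control also carried 1 altered allele. Nuclei were extracted from whole gland tissue with no selection of cells, and each genotype had 1 library, so no test between genotypes was possible and each difference is one between 2 libraries. Whether several animals or which of the salivary glands went into a library was not given in the sources used here.

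Salivary ducts modify the saliva that acinar cells secrete. Luminal cells of the larger ducts take up sodium through the epithelial sodium channel, driven by the sodium pump, and in return move potassium and bicarbonate, and they are rich in mitochondria. In rodents the same cells differentiate around puberty, partly under androgens, into granular duct cells that release kallikreins and growth factors such as EGF. Scattered ionocytes, cells with proton pumps and the chloride channel CFTR, lie among them.

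The number of nuclei did not fall steadily with marker number, as the plot of nuclei by marker number shows. Of the barcodes that met the UMI and secretory limits, called nuclei here, most had 0 to 2 markers. Numbers dipped at 6 markers in the control (129 nuclei, with 153 at 5 and 149 at 7) and at 5 in the null library (172, with 224 at 4 and 239 at 6). Above the dip they rose to 209 at 9 markers in the control and to 266 at 7 in the null library. The null library then fell to 132 at 9 markers and 43 at 10. A limit of 7 markers thus fell just above the dip in the control and further above it in the null library. Members with 7 to 10 markers numbered 707 in the control (51.1% of members) and 642 in the null library (50.3%). Members with 4 or 5 markers numbered 547 (39.6%) and 396 (31.0%). Just inside the threshold, 394 control and 224 null nuclei had 4 markers, and just outside it 1032 and 559 had 3. Slit2 stood at 641 (control) and 889 (null) CPM, its UMIs scaled to a common total of the summed UMIs, in nuclei with 4 markers. It stood at 358 and 457 CPM in those with 3, and at 6024 and 4121 CPM in those with 7 or more. Slit2 is itself among the markers counted, so a rise with marker number was built in. Its levels are thus no separate evidence for 2 kinds of members. The 705 control and 635 null members that had at least 7 markers and at most 20000 UMIs are called marker-rich nuclei, a group set after the values had been seen.

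**Figure D1:**
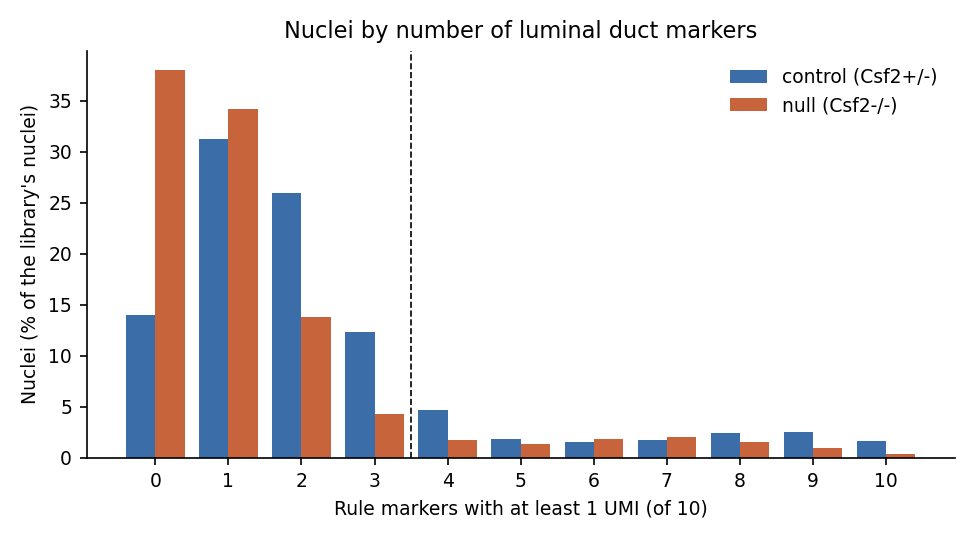
Share of each library's nuclei (vertical axis, %) by the number of the 10 rule markers with at least 1 UMI (horizontal axis). Bars are the control and the null library and the dashed line is the threshold. Numbers dip at 6 markers in the control (129 nuclei) and at 5 in the null library (172 nuclei). They then rise to 209 at 9 markers and 266 at 7, and the null library falls to 43 at 10.

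Markers of other cell types were present in part of the members. At least 3 markers of one other class were found in 346 of 1383 control and 161 of 1277 null members. Among members with 4 or 5 markers, 16.1% of control and 7.07% of null nuclei held at least 3 of 8 fibroblast markers, and 10.8% and 5.30% at least 3 of 11 basal and myoepithelial markers. Among members with 7 or more markers these shares were 3.11% and 3.27%, and 1.13% and 1.71%. The 20 luminal epithelial genes took 0.463% and 0.430% of member UMIs and 0.221% and 0.219% of those of other nuclei. Much of this gap was 1 gene, Tfcp2l1 (2385 and 2112 CPM in members, 358 and 353 CPM in other nuclei), and 4 of 17 measured luminal genes were at least 2-fold above other nuclei in both libraries. The 8 secretory genes, which also fill the free RNA of broken cells, took 11.9% of control and 15.8% of null member UMIs. In barcodes of free RNA they took 36.8% and 45.5%. A limit of 27% on these same genes defined both groups, so this gap was built in. Members above 20000 UMIs, 5 control and 12 null barcodes, held 3.35% and 13.7% of the member UMIs. A control member had a median of 3298 UMIs and a null member 2314. Barcode sequences of 2 members occurred among the members of both libraries. No Csf2 UMI was seen in members, where a floor of 3 counts equals 0.577 (control) and 0.786 (null) CPM, and the whole control library held 5 Csf2 UMIs and the null library 0.

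The 10 rule markers are given as a description, since they chose the members. They come from several roles. Slit2 encodes a secreted guidance ligand, Wnt4 a WNT ligand and Adra1a an alpha-1 adrenergic receptor, which answers sympathetic nerves. Cacnb4 encodes a subunit of voltage-gated calcium channels, Stxbp5l a tomosyn that limits vesicle fusion, Tmem163 a zinc transporter of vesicles and Sdk2 an adhesion protein. Ppargc1a encodes PGC-1alpha, a coactivator of genes for mitochondria.

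Slit2 stood at 3631 CPM in control and 3199 CPM in null members, against 193 and 125 CPM in other nuclei. Adra1a was at 551 and 575 CPM, against 13.3 and 12.8 CPM, the widest of the 10 gaps in both libraries at log2 5.37 and 5.48. The narrowest gap was that of Tmcc3, a coiled-coil protein gene, in the control (log2 3.57, 1855 CPM in members) and that of Ppargc1a in the null library (log2 3.31). Between the libraries 9 of the 10 lay within 2-fold: Tmcc3 (log2 null over control 0.22), Cacnb4 (0.14) and Adra1a (0.06) were higher in the null library and Stxbp5l (-0.59), Wnt4 (-0.40) and Eepd1 (-0.35) were the lowest after Ppargc1a. The plot of the rule markers shows 1 gene past 2-fold between the libraries, Ppargc1a.

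**Figure D2:**
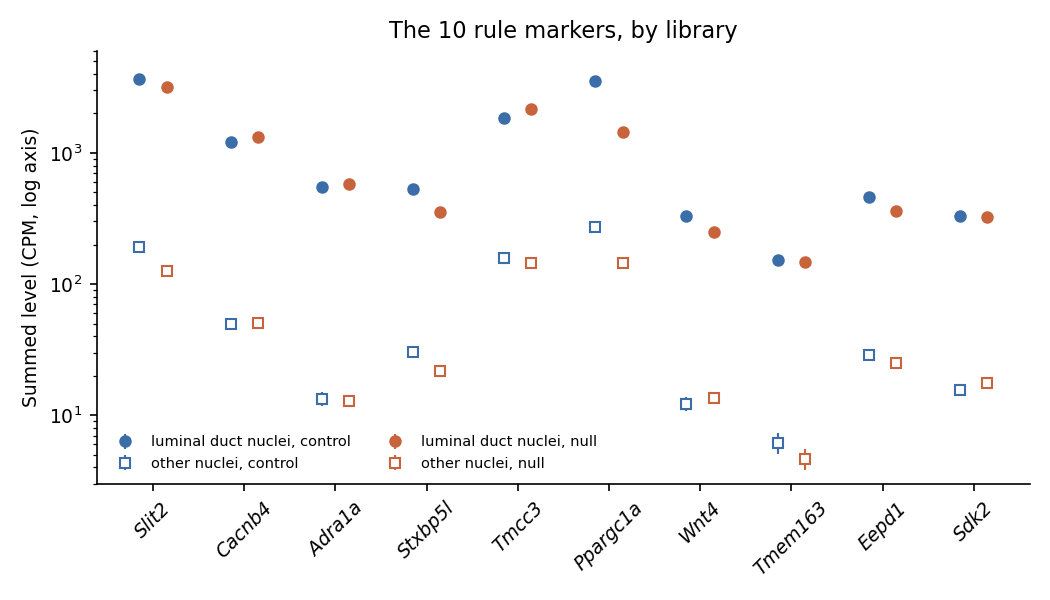
Summed level of each rule marker (CPM, log axis) in luminal duct nuclei (filled circles) and other nuclei (open squares) of the control and the null library, with exact Poisson 95% intervals that cover counting error only. Ppargc1a stands at 3556 CPM in control and 1448 CPM in null members.

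Clustering of the members gave 13 subgroups. In 4 of them at least 50% of nuclei held 7 or more markers, and these 4 contained 1713 members, 773 control and 940 null. Subgroup 1 (154 control, 397 null nuclei) was led by Slc5a5, a sodium-iodide transporter gene, by the kallikrein genes Klk1b26, Klk1b27 and Klk1b11, and by Arg1. Subgroup 5 (263 and 347) was led by Tmem232, Greb1, Ppp2r2c and Mapk4. Subgroup 6 (281 and 68) was led by Crisp3, a cysteine-rich secretory protein gene, by Stxbp5l, by the membrane mucin gene Muc13 and by A4galt, and 97.7% of its nuclei held at least 7 markers. Subgroup 13 (75 and 128) was led by Snph, Uox, Slc25a48 and Dgkg. Of the 19 androgen-responsive duct products, 11 were at least 2-fold above the other members with at least 10 UMIs in subgroup 1 and 10 in subgroup 6. The clustering used these same counts, and the share of all genes past 2-fold in a subgroup was not counted. Such marker counts therefore only describe the subgroups.

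The plot of subgroups gives their sizes, and no comparison of sizes between the libraries is made. Stxbp5l and Crisp3, which lead subgroup 6, were also lower in the null library within subgroups 5 and 13. Stxbp5l was at 271 control and 187 null CPM in subgroup 5 and at 545 and 306 CPM in subgroup 13. Crisp3 was at 138 and 91.1 CPM in subgroup 5 and at 349 and 204 CPM in subgroup 13. In subgroup 1 the libraries stood close, with Stxbp5l at 836 and 802 CPM and Crisp3 at 472 and 470 CPM. Differences in size and in the level of the defining genes cannot be told apart.

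The other 9 subgroups held 610 control and 337 null members. Subgroup 9 (133 and 83 nuclei) was ionocyte-like: Foxi1 and Ascl3, both ionocyte transcription factor genes, and Stap1 were among its 10 leading genes. In it 7 of 8 ionocyte markers exceeded the other members by at least 2-fold with at least 10 UMIs. This and the marker counts below are again a description, without the share of all genes. Subgroup 7 (27 and 13) was macrophage-like, with F13a1, Mrc1 and Cd163 among its leaders. In subgroup 10 (88 and 42) 8 of 8 fibroblast markers, and in subgroup 11 (64 and 25), led by the smooth muscle myosin gene Myh11, 9 of 11 basal and myoepithelial markers did the same. Subgroup 2 (117 and 56) held 15 of the 17 members above 20000 UMIs, and its leading genes rested on few nuclei: Nrg3 and Fgf14 had UMIs in 1 of its 173 nuclei each, Elavl2 in 3 and Rbfox1 in 4. Mucous acinar genes took 0.779% of its UMIs, against 0.143% in the other members. Subgroup 8 (83 and 51) was led by Lef1, Bcat1 and Tenm2, subgroup 12 (54 and 35) by Pex5l, Myo16 and Unc5c, subgroup 4 (33 and 16) by Slc9a3 and Bmp6, and subgroup 3 (11 and 16) by Rcan2 and Stap1.

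**Figure D3:**
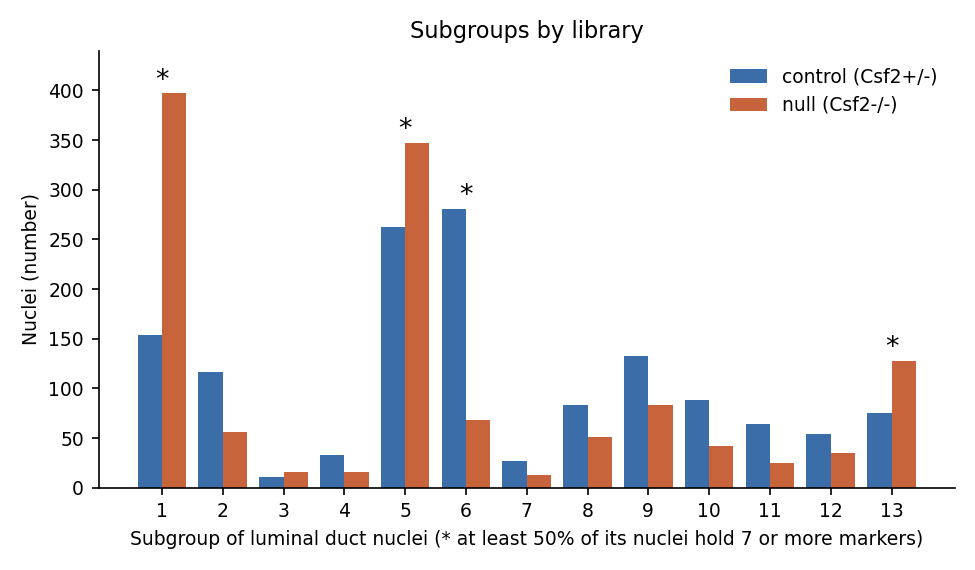
Number of luminal duct nuclei (vertical axis) in each of the 13 subgroups (horizontal axis), for the control and the null library. Asterisks mark the 4 subgroups in which at least 50% of the nuclei held 7 or more markers. These 4 hold 1713 of the 2660 nuclei.

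Genes of duct ion transport were among those higher in members than in other nuclei. Of 9000 genes with at least 100 member UMIs, 505 (5.61%) were at least 2-fold higher in members than in other nuclei in both libraries and 123 (1.37%) lower. By any size, 4050 (45%) were higher in both libraries and 3347 (37.2%) lower. Marker-rich nuclei had 581 of 6365 genes (9.13%) at least 2-fold higher. These gaps describe the members and are not a test, since the nuclei were chosen on expression. Among 23 measured genes of duct ion transport, 11 were at least 2-fold higher than in other nuclei in both libraries. Scnn1b, a subunit of the epithelial sodium channel, was at 200 CPM in control and 220 CPM in null members, log2 4.06 and 4.33 above other nuclei. Kcnj15 (390 and 191 UMIs) and Kcnj16 (452 and 277), inwardly rectifying potassium channel genes, stood log2 4.24 to 4.65 above other nuclei. Fxyd2, a regulator of the sodium pump, was at 470 and 517 CPM, log2 2.86 and 2.49 above them. Nr3c2, the mineralocorticoid receptor through which aldosterone acts, was at 889 and 777 CPM, log2 2.41 and 2.33 above. Of these genes, Scnn1b and Fxyd2 stood at similar levels in the few other nuclei that held at least 3 ionocyte markers (31 control, 59 null). Kcnj15 had 0 control and 0 null UMIs in those nuclei, and Kcnj16 had 2 and 1. Against those nuclei, members differed by log2 0.03 and -0.17 for Scnn1b, 0.14 and 0.08 for Fxyd2, and -0.38 and -0.58 for Nr3c2. The proton pump gene Atp6v0d2 was at -0.85 and -1.18, but it is 1 of the 8 ionocyte markers that chose those nuclei.

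Other leaders over the other nuclei had varied roles. Nos1, the neuronal nitric oxide synthase gene, had log2 gaps of 5.33 and 5.41, and Kcnt1, a sodium-activated potassium channel gene, 5.21 and 5.79. Atp6v1c2 (4.36 and 4.57) and Atp6v0d2 (4.19 and 4.37) encode subunits of the proton pump. Best3 (4.66 and 4.24) belongs to the bestrophin chloride channels, Fa2h (4.04 and 4.25) hydroxylates fatty acids of sphingolipids, and Nell1 (5.03 and 4.91) is a secreted protein gene. Kif26a (4.57 and 4.65), Ppp2r2c (4.25 and 4.81), Muc13 (4.25 and 4.71) and Trdj1 (4.94 and 4.84), a T cell receptor segment that here had 69 and 39 UMIs, completed the list. Alk, with gaps of 7.11 and 5.53, rested in the control on 1 barcode that held 92 of its 104 control UMIs. Tfcp2l1, a transcription factor gene of duct epithelium, was at 2385 and 2112 CPM, log2 2.74 and 2.58 above other nuclei.

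Of the nuclei, 16.5% of the control (15.7 to 17.3, exact binomial 95% bounds) and 9.75% of the null ones (9.25 to 10.3) were members, a log2 ratio of -0.76 (-0.87 to -0.65, counting error only). This share depends on its denominator. The secretory limit passed 43.2% of control and 74.1% of null barcodes with at least 1000 UMIs. Of all such barcodes, members were 7.13% and 7.23%, a log2 ratio of 0.02 (-0.09 to 0.13). With every nucleus thinned to 1000 UMIs, which evens out depth, 849 control and 970 null nuclei met the rule, 10.1% and 7.41%, which differ by log2 -0.45 (-0.59 to -0.32).

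Of the 9000 genes measured in members, 29 (0.322%) were at least 2-fold higher and 117 (1.30%) at least 2-fold lower in the null library, 146 (1.62%) in all, and the median log2 ratio was -0.06. Leaving out members above 20000 UMIs gave 25 and 116. In marker-rich nuclei, 13 of 6365 genes (0.204%) were at least 2-fold higher and 34 (0.534%) lower. Of the 117 lower genes, 36 were still at least 2-fold lower in marker-rich nuclei and 27 were above 0 there, with no UMI minimum in those nuclei. Of the 29 higher genes, 19 were still at least 2-fold higher. For most lists the values in both populations are given below.

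Ppargc1a had 18496 control and 5531 null UMIs in members, a log2 ratio of -1.30 (-1.34 to -1.25). Ppargc1a is a rule gene, and with Ppargc1a left out of the rule the ratio was -1.57. Marker-rich nuclei had 6042 CPM in the control and 2027 CPM in the null library (-1.58, -1.63 to -1.52). Members with 4 or 5 markers stood at 779 and 845 CPM. Each of the 4 marker-rich subgroups had the lower value in the null library: 4061 control and 1814 null CPM in subgroup 1, 8062 and 2638 in subgroup 5, 6444 and 2532 in subgroup 6, and 3996 and 1217 in subgroup 13. With each marker-rich nucleus thinned to 1000 UMIs, a control nucleus had a median of 4 Ppargc1a UMIs (lowest 0, highest 40) and a null nucleus a median of 1 (lowest 0, highest 16). No Ppargc1a UMI was left in 9.50% of control and 25.4% of null nuclei, while Slit2 was left at 0 in 4.40% and 5.83%. The level was lower in other nuclei too, at -0.91, and in free RNA, at -1.75.

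Genes listed as known targets of CREB or of fasting signals were also lower in the null library. This list, like the others here, was written with earlier results of these data known, so its counts are a description. All 16 measured genes of that list were below 0 in members, against 58.4% of all genes, with a median log2 ratio of -0.35. The list's median was also -0.35 in other nuclei and -0.69 in free RNA. It was -0.15 with free RNA subtracted and -0.17 in members under 15% secretory UMIs. In marker-rich nuclei 11 of 15 were below 0, against 56.3% of all genes, and the median was -0.36. Nr4a3, an orphan nuclear receptor gene, had 437 control and 93 null UMIs (-1.79, -2.13 to -1.46). Bcl6, a transcriptional repressor gene, had 820 and 247 (-1.29, -1.50 to -1.08). Irs2, which carries the insulin signal, had 780 and 242 (-1.24, -1.46 to -1.03). In marker-rich nuclei the 3 were at -1.20, -1.46 and -1.48. Bcl6 and Irs2 were lower in the null library in each of the 4 marker-rich subgroups, with Irs2 between -1.26 and -1.48 and Bcl6 between -1.02 and -1.67. In other nuclei Nr4a3 was at -1.53, Bcl6 at -1.28 and Irs2 at -1.48.

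Pdk4 stood closer between the libraries in other nuclei. The gene encodes a kinase that turns off pyruvate dehydrogenase when fat is burned. It had 95 control and 30 null UMIs in members (-1.22, -1.86 to -0.61) and was at -1.72 in marker-rich nuclei, at -0.15 in other nuclei and at -1.11 in free RNA. In each marker-rich subgroup it had 10 to 28 control and 1 to 6 null UMIs. The members' interval lay below the value in other nuclei, and no replicate checks it.

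The promoters of Ppargc1a and Nr4a3 are shown because both genes are known to answer CREB, which binds cAMP response elements with the core TGACG. Both sequences are RefSeq windows of the 250 bases before the gene's start on build GRCm38.p6, another build than that of the files. Ppargc1a lies at chr5:51567726-51567975 on the minus strand and Nr4a3 at chr4:48045055-48045304 on the plus strand. Capitals mark TGACG on either strand (CGTCA on the other), which occurred 1 time in the first and 4 times in the second. Of 32851 such windows, 17.8% held it.
Ppargc1a: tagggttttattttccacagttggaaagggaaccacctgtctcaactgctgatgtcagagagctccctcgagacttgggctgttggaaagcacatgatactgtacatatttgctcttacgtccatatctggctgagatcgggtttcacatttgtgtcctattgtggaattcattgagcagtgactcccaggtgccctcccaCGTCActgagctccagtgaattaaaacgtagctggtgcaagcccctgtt
Nr4a3: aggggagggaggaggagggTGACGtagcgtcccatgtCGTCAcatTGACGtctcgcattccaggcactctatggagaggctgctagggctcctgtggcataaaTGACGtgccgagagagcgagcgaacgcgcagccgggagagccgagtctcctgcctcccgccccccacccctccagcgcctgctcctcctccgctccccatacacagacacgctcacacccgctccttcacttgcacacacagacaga
A match describes these letters only, and no binding was measured.

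**Figure D4:**
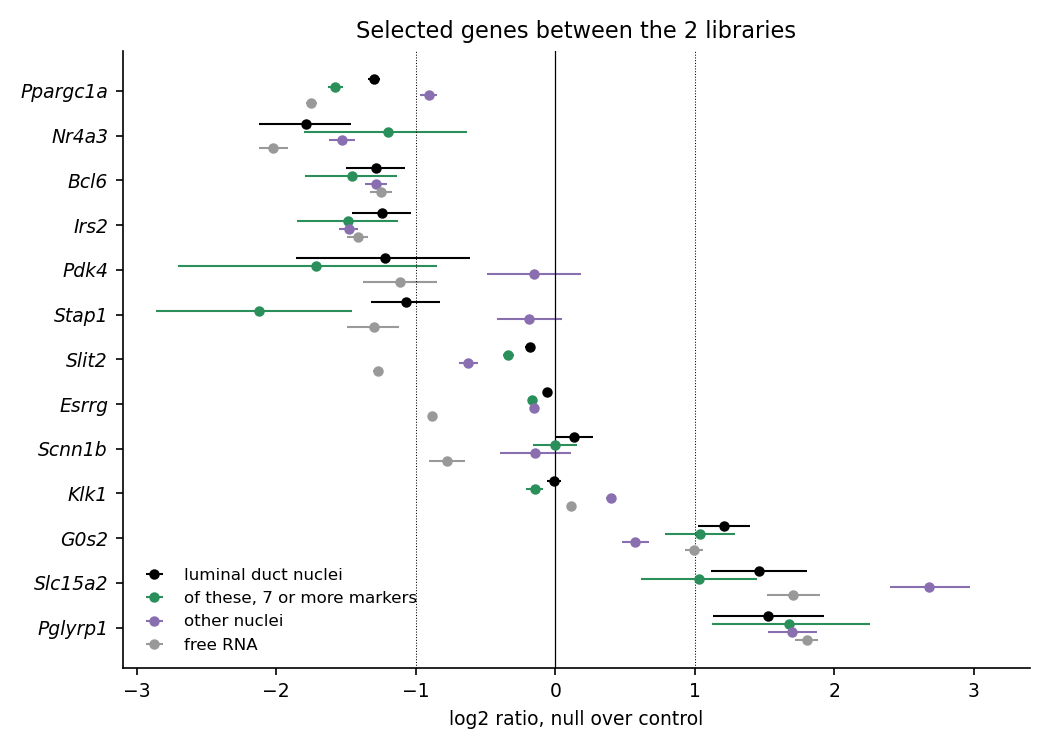
Log2 ratio of null over control (horizontal axis) for 13 genes in luminal duct nuclei, in their marker-rich part, in other nuclei and in free RNA, with 95% counting intervals; dotted lines mark 2-fold. Ppargc1a, Nr4a3, Bcl6 and Irs2 are lower in all 4 populations, and Pdk4 is at -1.22 in luminal duct nuclei and -0.15 in other nuclei.

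Partners and targets of PGC-1alpha did not share its size of difference. Of 12 measured PGC-1 and ERR regulator genes 5 were above 0 and 7 below, with a median of -0.07. Only Ppargc1a, a rule gene that is counted here, was past 2-fold. In marker-rich nuclei 3 were above 0 and 8 below (median -0.16). Esrrg, an estrogen-related receptor that PGC-1alpha coactivates, had 39077 and 27565 UMIs, 7514 and 7218 CPM (-0.06, -0.08 to -0.04). Esrra was at -0.09 (-0.28 to 0.10). Ppargc1b, the related coactivator, was at 0.35 (0.18 to 0.52), and Nrf1, a regulator of mitochondrial genes, at -0.27 (-0.42 to -0.13). Of 30 nuclear genes of oxidative phosphorylation 22 were above 0 in members (41.6% of all genes were), with a median of 0.14, against 0.22 in other nuclei. In marker-rich nuclei 17 of the 30 were above 0, with a median of 0.02, and 43.7% of all genes were. Atp5a1, a subunit of ATP synthase, was at 0.25 (0.14 to 0.37) in members and 0.08 in marker-rich nuclei, and Ndufs4, of complex I, at -0.25 and -0.39. The 19 genes of the tricarboxylic acid cycle and fatty acid oxidation had a median of 0.01, with 11 above and 8 below 0, and of -0.03 in marker-rich nuclei, with 8 above and 11 below. Cpt1a, the gatekeeper of fatty acid import, had 1282 and 1287 CPM.

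Of 23 duct ion transport genes 7 were above and 16 below 0 (58.4% of all genes were below 0), with a median of -0.20. The intervals of 15 lay below 0, and 0 genes were past 2-fold. The median was -0.32 in marker-rich nuclei, with 4 above and 17 below 0 (56.3% of all genes below). It was -0.08 without members above 20000 UMIs and 0.031 with a limit of 3 markers. Scnn1b was at 0.14 (0.00 to 0.27), Fxyd2 at 0.14 (0.05 to 0.22), and Kcnj15 at -0.58 (-0.84 to -0.33). Kcnma1, the large-conductance potassium channel, had 2850 and 2851 CPM. Of 10 androgen-responsive products 3 were above and 7 below 0, with a median of -0.06, and 0 were past 2-fold. In marker-rich nuclei 3 were above and 6 below (-0.09), and over the alternatives the median ran from -0.335 in the marker-rich subgroups to 0.15 with a limit of 3 markers. Klk1, the main tissue kallikrein, had 1488 and 1479 CPM in all members. It was lower in the null library in each of the 4 marker-rich subgroups: 3356 and 2342 CPM in subgroup 1, 2442 and 1855 in subgroup 5, 2462 and 2124 in subgroup 6, and 1334 and 1180 in subgroup 13. Other subgroups went both ways, with 1.12 in subgroup 9 and -0.42 in subgroup 4. Egf had 916 and 594 UMIs (-0.18, -0.33 to -0.03). Klk1b11 was at -0.37 (-0.61 to -0.13), and this value is uncertain, since Klk1b copies are so alike that reads may be split among them.

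All 5 measured ionocyte markers were below 0 in members (58.4% of all genes were), with a median of -0.38. In marker-rich nuclei 3 of 3 were below 0 (56.3% of all genes were), with a median of -0.60. Stap1, a signalling adaptor gene that leads subgroups 3 and 9, had 538 control and 188 null UMIs in all members (-1.07, -1.32 to -0.83) and 141 and 21 in marker-rich nuclei (-2.12, -2.86 to -1.45). Kcnj3 (-1.95), Rcan2 (-1.76), Clnk (122 and 28 UMIs), Kit (-1.47) and Slc4a11 (-1.41), which also lead subgroups 3 or 9, were among the 34 genes at least 2-fold lower there. These were named after their values had been seen. Nuclei with at least 3 ionocyte markers were 5.52% of control and 1.40% of null members with 7 or more markers, 18.6% and 5.02% of those with 6, 12.1% in both libraries of those with 4 or 5, and 9.33% and 5.40% of all members. Whether the number of such nuclei or their RNA set these ratios was not tested. Cftr was at -0.20 (-0.33 to -0.08) in members and -0.51 in marker-rich nuclei, and Atp6v0d2 at -0.38 and -0.60. Within the ionocyte-like subgroup 9 the values were not all lower: Cftr was at 1140 control and 1638 null CPM (0.52, 0.32 to 0.73), Foxi1 at 0.03, Atp6v0d2 at -0.03 and Stap1 at -0.53 (-0.81 to -0.25). In subgroup 3 Cftr was at 1.13. Other genes at least 2-fold lower in marker-rich nuclei were Lpin1 (-1.09), a phosphatidate phosphatase gene induced by fasting, Fbxo32 (-1.27), a ubiquitin ligase gene known from muscle wasting, and Klhl24 (-1.05), also named after their values had been seen. Fbxo32 was at 0.56 in other nuclei.

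The 12 highest genes of the null library were all above 0 in free RNA too. Pglyrp1, an antibacterial peptidoglycan-binding protein gene, had 81 control and 171 null UMIs (1.52, 1.13 to 1.92), and was at 1.70 in other nuclei and 1.80 in free RNA. Slc15a2, a peptide transporter gene, had 107 and 216 UMIs (1.46, 1.12 to 1.81). It was at 1.03 in marker-rich nuclei and 2.68 in other nuclei. In the 4 marker-rich subgroups it had 7 control and 65 null UMIs (subgroup 1), 19 and 48 (subgroup 5), 54 and 14 (subgroup 6, 59.7 and 75.3 CPM) and 7 and 28 (subgroup 13). G0s2, an inhibitor of fat breakdown, had 366 and 621 UMIs (1.21, 1.02 to 1.40) and was at 1.04 in marker-rich nuclei and 0.57 in other nuclei. Bpifa2 (1.10) and the interferon-induced gene Ifi27l2a (1.05) were as high in marker-rich nuclei, at 1.18 and 1.09. Mgat2 (1.38), Gnmt (1.05) and Dennd2d (0.92) were at 0.76, 0.66 and 0.65 there. Tigd2 (1.12), Mrps34 (1.26), Pycard (0.97) and the clock output gene Dbp (1.01, 104 and 154 UMIs) completed the 12 highest. The salivary genes Dcpp1, Dcpp2 and Dcpp3 were at 2.19, 2.12 and 2.27, against 2.17, 2.13 and 2.30 in free RNA, and reads may be split among these close copies.

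Of the 12 lowest genes, 8 rested on 1 control barcode. A control member with 30111 UMIs and 4 rule markers held 725 of 805 control UMIs of Kcnip4, 507 of 549 of Rbfox1, 117 of 117 of Nrg3 and 103 of 106 of Fgf14. The null library had 62, 40, 1 and 0. Without members above 20000 UMIs, Kcnip4 was at 0.079 and Rbfox1 at 0.50. Grm7 (91 of 106), Cadm2 (133 of 212), Nlgn1 (118 of 195) and Map1b (62 of 99) were held mainly by the same barcode. Of the 117 lower genes, 10 had at least 50% of their control UMIs in 1 barcode. The others were Ppargc1a, Nr4a3, Col6a6, a collagen gene (137 and 18 UMIs, -2.48, and -1.37 in marker-rich nuclei), and the ribosomal RNA gene 5_8S_rRNA (1019 and 169, -2.15, and -3.11 in other nuclei).

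The counts of signalling genes below 0 are read against 58.4% of all genes in members and 56.3% in marker-rich nuclei. All 7 measured Slit and Robo genes were below 0 in members, with a median of -0.42, and 5 of 7 in marker-rich nuclei, with a median of -0.22. Robo1 was at -0.68 and Robo2 at -0.85 in members, but at -0.05 and 0.29 in marker-rich nuclei, while Slit2 was at -0.18 and -0.34. Slit2 is counted among the 7 but is a rule gene that chose the members. Of 18 WNT pathway genes 16 were below 0 (median -0.20), and 10 of 12 in marker-rich nuclei (-0.19). Lgr4, an R-spondin receptor gene, was at 265 and 235 CPM (-0.17) in members and at 0.11 in marker-rich nuclei. Ror2 was at -1.06 in members and 1.14 in marker-rich nuclei, where it had under 100 UMIs. Of 26 growth factor genes 22 were below 0 (median -0.21), and 14 of 20 in marker-rich nuclei (-0.02), not far from the share of all genes. Pdgfd, a platelet-derived growth factor gene with 3167 and 2007 UMIs, stood log2 3.25 and 3.51 above other nuclei and was at -0.21 (-0.29 to -0.13). Fgfr2, the receptor of FGF10, had 1100 and 1093 CPM. Igf1 (-1.25) and Fgf10 (-1.01), known from mesenchyme, were at -0.11 and -0.13 in marker-rich nuclei.

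Of 15 calcium channel and vesicle fusion genes 12 were below 0 (median -0.33, 58.4% of all genes below 0), and 9 of 11 in marker-rich nuclei (-0.07). Cacna2d1 was at -1.04 and at 0.58 there. Of 17 extracellular matrix genes 16 were below 0 (median -0.39), and 6 of 11 in marker-rich nuclei (-0.00), near the 56.3% of all genes. Fbn1 (-1.10), Nid1 (-1.21) and Col4a1 (-1.03) were past 2-fold in members and at -0.55, -0.76 and 0.22 in marker-rich nuclei. Fibroblast marker UMIs were 445 and 326 CPM in members. Lama5 (-0.29) and Itgb4 (-0.11), laminin and integrin genes of the epithelium's base, stood log2 2.11 and 2.01, and 1.75 and 1.47, above other nuclei.

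For the lists that follow, 58.4% of all genes were below 0 in members and 56.3% in marker-rich nuclei. Among 8 measured niche ligand and receptor genes 6 were below 0, with a median of -0.41, and it was -0.37 in other nuclei. In marker-rich nuclei 3 of them were measured, 1 above and 2 below 0. Csf2ra, the GM-CSF receptor's alpha chain, had 137 control and 55 null UMIs (-0.87, -1.35 to -0.41), with -0.68 in other nuclei and -0.85 in free RNA. Il33, an alarmin gene, had 85 and 30 (-1.06, -1.71 to -0.44) and was at -0.66 in marker-rich nuclei. Il15 was at -0.37 (-0.53 to -0.22) and Ccl28, a mucosal chemokine gene, at -0.44 (-0.62 to -0.26). Csf1, the growth factor of macrophages, was at 0.25 (-0.15 to 0.66). Of 7 autonomic receptor genes 2 were above and 5 below 0, and 2 and 4 in marker-rich nuclei. Chrm3, the muscarinic receptor that drives salivation, had 2262 and 2193 CPM and Adrb1 was at 0.34 (0.17 to 0.52). Of 18 clock genes 8 were above and 10 below 0, with Dbp past 2-fold, and 6 and 9 in marker-rich nuclei. Of 8 immediate early and heat shock genes 7 were above 0 (median 0.44, 41.6% of all genes above 0), with Hspa1b at 1.01 (48 and 71 UMIs). In marker-rich nuclei 4 of 5 were above 0 (median 0.18), and with at least 5 markers the median was 0.088. Of 17 luminal identity genes 8 were above and 9 below 0 (median -0.00), and 10 and 6 in marker-rich nuclei (0.11), with Krt7 at 0.15 (0.01 to 0.30). Of 6 measured cell cycle genes 3 were above and 3 below 0, with Top2a at 0.58 (102 and 112 UMIs) and Mcm6 at -1.01 (85 and 31).

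**Figure D5:**
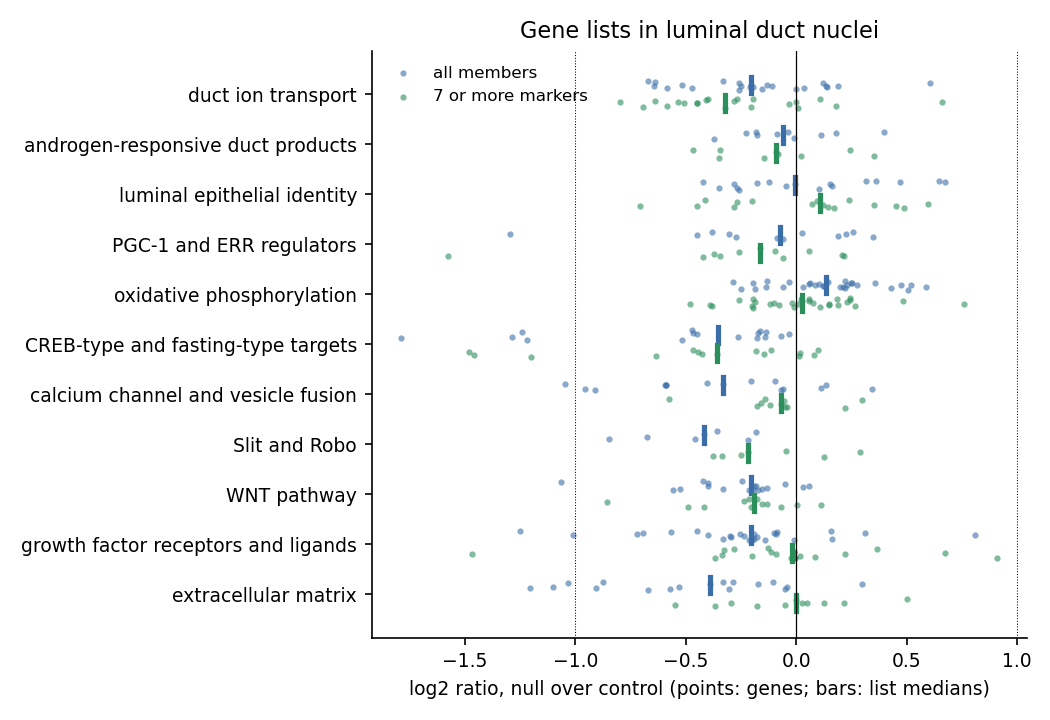
Log2 ratio of null over control (horizontal axis) for the measured genes of 11 lists (points) with list medians (bars), in all members and in marker-rich nuclei; dotted lines mark 2-fold. The medians of extracellular matrix genes were -0.39 and -0.00, and those of the CREB-type and fasting-type targets -0.35 and -0.36.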

How the data were processed

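Single-nucleus RNA was measured in 2 libraries, 1 per genotype. The authors deposited count matrices of unnormalized UMIs, made with Cell Ranger 7.0.0 (per the file headers) against GRCm39 (per the submitters' processing notes). Annotation and intron counting were not given in the sources used here. The control library held 68460 barcodes with 76002888 UMIs, the null library 74339 with 75630815, and 1367 barcode sequences occurred in both. Members and gene lists were chosen with earlier results of these data known.

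Counts were summed over members per library, scaled to CPM, and compared as log2 null over control with exact conditional binomial 95% intervals. Shares had exact Clopper-Pearson and sums exact Poisson intervals. None covers more than counting error. A single library per genotype allowed no test. A gene was measured with at least 100 UMIs over both libraries and called at 2-fold. Zero counts were bounded with a floor of 3. Other nuclei met the UMI and secretory limits with under 4 markers, and free RNA barcodes had under 1000 UMIs and at least 27% secretory UMIs.

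Members were clustered on 1500 variable genes, 20 components, 15 neighbours and Leiden resolution 0.6 (Scanpy 1.11.5, igraph 0.11.9, Python 3.11.15). No doublet caller was run. Named genes were the rule genes, the 12 highest and 12 lowest between libraries by the interval bound nearest 0, the 15 highest over other nuclei, and in each list the 6 with most UMIs and any past 2-fold. Sex-linked, predicted, ribosomal protein and mitochondrial genes and the 100 most abundant free-RNA genes were left out of the rankings. Some further list members are named for their role. The steps were tested on simulated data. The alternatives were other marker, UMI and secretory limits, scalings, thinning, free RNA subtraction and gene minimums. A few genes that the naming rule selects are not reported here.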

Additional observations from a re-analysis of the deposited data

How the results depend on the processing

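No paired analysis was possible because each genotype had 1 library, and for the same reason no replicate could be left out. The log2 share ratio among nuclei, -0.76, moved to -1.04 with at least 3 markers, -0.55 with at least 5, -0.52 without Ppargc1a in the rule, -0.30 under 15% secretory UMIs, -0.54 without members holding 3 markers of another class, -0.36 in the 4 marker-rich subgroups, -0.45 thinned and -0.23 of all barcodes, and turned to 0.020 of all barcodes with at least 1000 UMIs. The count of genes 2-fold apart, 146 (29 higher, 117 lower), became 76 with at least 5 markers (45 lower), 89 without Ppargc1a in the rule (57 lower), 43 without members of other classes (19 and 24), 47 with at least 7 markers and at most 20000 UMIs (13 and 34), 58 in the marker-rich subgroups (33 lower), 67 thinned (13 and 54), 295 with free RNA subtracted (103 and 192), 283 at a minimum of 50 UMIs (64 and 219), 73 at 200 (15 and 58) and 3840 at 1 (1347 and 2493). The count of genes 2-fold over other nuclei, 505, became 1017 at a minimum of 1 UMI. The groups with at least 7 markers and of marker-rich subgroups, and the removal of members above 20000 UMIs, were chosen after seeing the data.

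Some genes changed sign. With at least 5 markers Rbfox1 was at 0.28, Grm7, Nlgn1 and Ror2 at 0.24 and Alk at 1.56. Without members of other classes Kcnip4 was at 0.25, Rbfox1 0.70, Cadm2 0.18, Nlgn1 1.13, Alk 1.24 and Ror2 1.07. Without members above 20000 UMIs Kcnip4 was at 0.079, Rbfox1 0.50 and Alk 1.42. With at least 7 markers and at most 20000 UMIs Kcnip4 was at 0.48, Rbfox1 0.13, Nlgn1 1.11, Alk 1.43, Flt1 0.50, Cacna2d1 0.58, Ror2 1.14 and Col4a1 0.22. In the marker-rich subgroups Kcnip4 was at 0.24, Rbfox1 0.36 and Alk 1.60. For Kcnip4, Rbfox1 and Alk 1 control barcode with 30111 UMIs held most UMIs, and the sign turned without members of that size. Without them Grm7 was at -0.13, Cadm2 at -0.52 and Nlgn1 at -0.75, and for these and the others the cause was not tested. Small counts limit Pdk4, Trdj1, Il33 and Mcm6. They also limit the turned signs of Kcnip4, Rbfox1, Nlgn1, Alk and Ror2 in marker-rich nuclei. There Kcnip4 had 21 control and 19 null UMIs, Rbfox1 24 and 17, Nlgn1 10 and 14, and Alk 8 and 14.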
